A study of Mus musculus with 10 samples.

Results

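The histone genes of the Hist clusters were taken as every feature whose name starts with Hist1, Hist2, Hist3 or Hist4 followed by the type H1, H2A, H2B, H3 or H4. This rule uses names only, and 68 of the 25965 features in the table met it. By type there were 6 H1, 19 H2A, 18 H2B, 12 H3 and 13 H4 genes. By cluster, 55 belonged to Hist1 on chromosome 13, 10 to Hist2 on chromosome 3, 2 to Hist3 on chromosome 11 and 1, Hist4h4, to Hist4 on chromosome 6. RNA-seq had been performed on 10 libraries of male C57/Bl6 mouse embryonic stem cells (mESCs). The lines were derived under the Keniry2022 method, sampled at p0, and then split between Keniry2022 (suspension culture with daily passage, New in the labels) and Mulas2019 (attachment to gelatin with passage every other day, Old in the labels). Both arms were kept in 2i/LIF medium, without serum or feeder cells, and harvested at p10 and p20, giving 5 groups of 2 libraries: p0, p10 Keniry2022, p20 Keniry2022, p10 Mulas2019 and p20 Mulas2019. Since the arms differ in passage interval, p20 Keniry2022 and p10 Mulas2019 are the pair matched in days of culture. Each group rests on 2 independently derived lines, and the Y chromosome was lost from a line during derivation, before the split.

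Histones package DNA into nucleosomes. An octamer of H2A, H2B, H3 and H4 forms the core, and the linker histone H1 binds where DNA enters and leaves it. The genes of the Hist clusters are the replication-dependent set: they are transcribed mainly in S phase and mostly lack introns. Their mRNAs typically end in a conserved stem-loop, bound by SLBP, in place of a poly(A) tail. Rapidly dividing cells such as mESCs spend much of the cycle in S phase and need a large supply of histone protein. A cultured cell also holds replication-independent variants such as H3.3 and H2A.Z, whose mRNAs are polyadenylated. The labels name total RNA, and the study's methods name the TruSeq RNA kit of Illumina for the libraries. The usual protocol of that kit selects polyadenylated RNA, but neither source states the selection step used here.

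The stem-loop is shown here because it sets these mRNAs apart from nearly all others. In GENCODE vM21 transcripts, which use the same build as the table (GRCm38, mm10), a 16-base stem-loop of the form GGNNNNTTNNNNNNCC, whose last 6 bases are the reverse complement of its first 6, was found in 44 of the 68 histone genes. It occurred in 4 of 6 H1, 11 of 19 H2A, 10 of 18 H2B, 8 of 12 H3 and 11 of 13 H4 genes. Within the last 200 bases of the longest transcript of a gene it was present in 24 of 67 histone genes annotated as protein coding (35.8%) and in 5 of 21810 other protein-coding genes (0.0229%). There were 6 versions, shown for 1 gene each with 5 flanking bases in lower case and the stem-loop in capitals:

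Hist1h2bj, chr13:22043638-22043653, plus strand: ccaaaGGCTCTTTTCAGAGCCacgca

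Hist1h4d, chr13:23581950-23581965, plus strand: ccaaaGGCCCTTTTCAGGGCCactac

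Hist1h2bk, chr13:22036300-22036315, plus strand: ccaaaGGCTCTTTTAAGAGCCactaa

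Hist1h4i, chr13:22040966-22040981, minus strand: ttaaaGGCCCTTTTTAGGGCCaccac

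Hist1h4b, chr13:23757366-23757381, plus strand: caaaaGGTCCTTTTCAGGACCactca

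Hist2h2ac, chr3:96220418-96220433, minus strand: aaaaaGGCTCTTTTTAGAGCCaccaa

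The version of Hist1h2bj was the most frequent, with 26 genes of the types H1, H2A, H2B and H3 and no H4 gene. The 11 H4 genes with a stem-loop instead carried the versions of Hist1h4d (7 genes), Hist1h4i (2) and Hist1h4b (2). The version of Hist1h2bk was found in 6 genes (1 H1, 2 H2B and 3 H3) and that of Hist2h2ac in this gene alone. A gene without a match here may end before its stem-loop in the annotation, since several of the models hold the coding part only, and nothing is drawn from its absence. Other annotated transcripts run past it. In the genes called between the methods below, the bases after the stem-loop were 1643 in Hist3h2a, 770 in Hist1h4d, 30 in Hist1h2bk and 23 in Hist1h2bj. Whether the captured RNA of these genes ended at the stem-loop or was polyadenylated was not tested.

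Levels in this table are log2 values scaled to exon length and library depth, and a gene with 0 reads was entered by the authors' software at a floor set by its length. Whole reads were recovered from these floors. The 10 libraries held between 24053996 and 30236823 reads, of which 86.0% to 88.9% were in features. Only 9034 reads fell on the 68 histone genes in all libraries together, and 9 genes had none in any library. Of the 68 genes, 25 had a value above 0 in at least 1 library, 13 in 5 or more libraries and 10 in all 10, while 43 were never above 0. Per library, between 12 and 20 histone genes were above 0 and between 51 and 55 had at least 1 read. A count of 0 in a library allows a level of up to 3 reads, which is 0.0992 to 0.125 RPM (reads scaled to the depth of the library), and this limit covers counting error only.

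The mESC identity of the libraries was checked with 8 markers, Pou5f1 and Nanog among them, which were above 0 in all libraries, at log2 values between 4.73 and 9.23. Their linear levels summed to 1483 to 1661 at p0, 1387 to 1531 under Keniry2022 and 1278 to 1308 under Mulas2019, so this sum also moved with the groups. Of 11 markers of primitive endoderm, trophoblast, fibroblasts and primed cells, 10 were at or below 0 in every library and 1 reached 0.02, and none was at 0 reads throughout. For the lists of these 11 markers, sums of the linear levels stayed under 1.6 in every library but moved with the groups. The 3 primitive endoderm markers summed to 1.23 to 1.36 at p0, 0.895 to 1.03 under Keniry2022 and 1.15 to 1.59 under Mulas2019. The 3 fibroblast markers summed to 0.747 to 1.01 at p0 and 0.773 to 0.874 at p10 Keniry2022, and were lower at p20 Keniry2022 (0.388 to 0.458), p10 Mulas2019 (0.335 to 0.404) and p20 Mulas2019 (0.417 to 0.501). The 3 primed markers summed to 0.802 to 1.02 at p0, 0.75 to 0.789 under Keniry2022, 1.06 to 1.25 at p10 Mulas2019 and 0.844 to 0.884 at p20 Mulas2019. The 2 trophoblast markers summed to 0.156 to 0.304 at p0, 0.153 to 0.473 under Keniry2022 and 0.093 to 0.453 under Mulas2019. Their part in the histone levels was not tested.

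**Figure D1:**
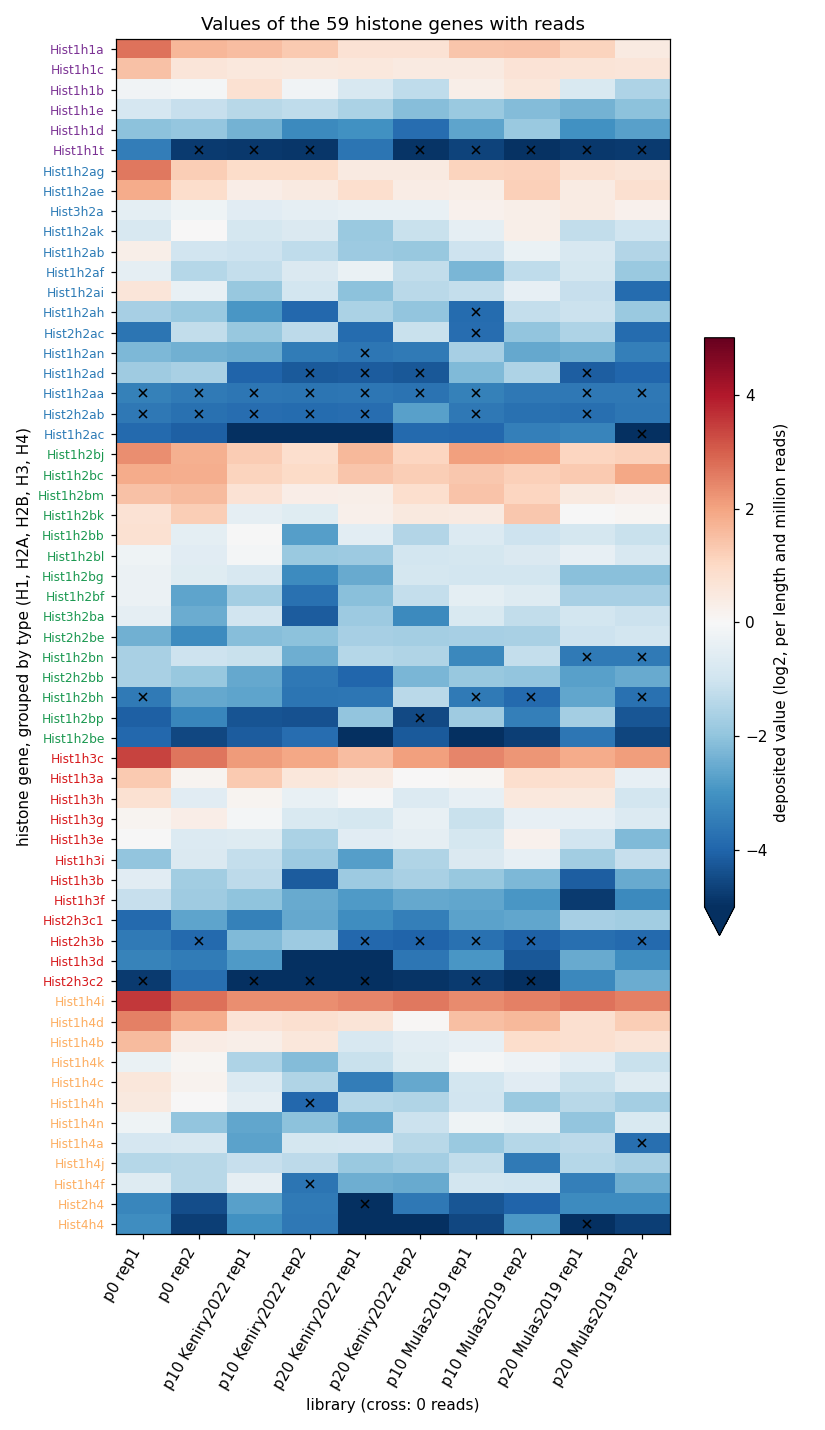
Deposited log2 value (colour, clipped at -5) of the 59 histone genes with reads, 1 row a gene sorted by type and mean level, 1 column a library, with a cross where a library had 0 reads. Only 10 genes were above 0 in all 10 columns, and p0 replicate 1 is the column with the highest level for 25 of the 59 genes.

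The genes above 0 were nearly all in Hist1. This cluster held 24 of the 25 genes that were above 0 in any library and 87.6% of the histone reads. In Hist2, where 8 of 10 genes had reads, none was above 0 in any library, and the cluster held 5.4% of the histone reads. Hist3 held 6.4%, nearly all on Hist3h2a, and Hist4h4 held 0.5%. By type, H2B genes took 23.1% of the histone reads, H4 20.6%, H3 19.4%, H1 18.4% and H2A 18.4%.

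The reads lay on few genes, and the 5 genes with most reads took 39.4% of them. Hist1h4i (chr13:22040816-22041352, minus strand), which encodes the core histone H4, had the highest level per length, with a mean log2 value of 2.61 over the 10 libraries, from 2.31 to 3.55. Hist1h3c (chr13:23744973-23745602, minus strand), an H3 gene, followed with a mean of 2.23, from 1.56 to 3.37. The ranges of these 2 genes overlapped, but Hist1h4i was the higher of them within every library except p10 Mulas2019 replicate 1. Their difference was not tested. Next came the H2B genes Hist1h2bj (mean 1.53) and Hist1h2bc (1.42) and the H1 gene Hist1h1a (1.31), whose ranges over the libraries overlapped.

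Sequence shared between the copies bears on these counts. In the 68 genes, 75-base windows of the annotated transcripts were compared with all other transcripts at other places in the genome, 75 bases being the read length. Of the 12 genes with under 20% of windows found nowhere else, 7 had 0 reads in all libraries, and the median over the 12 was 0 reads. Of the 21 genes with 80% or more unique windows, none was without reads, and the median was 65 reads. The 7 genes were the H2A genes Hist1h2ao, Hist1h2ap, Hist2h2aa1 and Hist2h2aa2, the H2B genes Hist1h2bq and Hist1h2br, and Hist1h4m. The remaining genes without reads were the pseudogene Hist1h2al, which lies apart from the rest of Hist1 at chr13:51202688-51203065, and Hist1h2ba, the testis H2B gene. The testis genes Hist1h2aa and Hist1h1t had 1 and 4 reads in all. No source used here states how reads with several alignments were counted, so the level of a gene that shares sequence with a copy is uncertain, Hist1h2ag (22.4% unique windows) and Hist1h2bk (27.4%) among those named below.

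**Figure D2:**
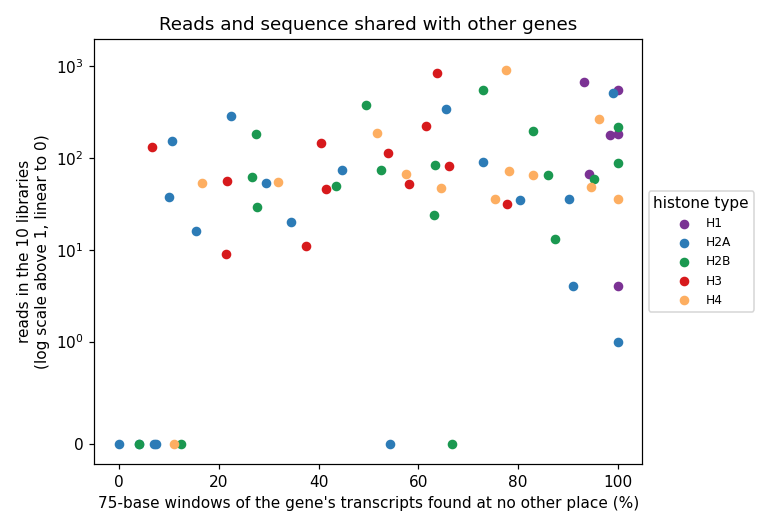
Reads in the 10 libraries (vertical, log scale above 1 and linear down to 0) against the percentage of 75-base windows of a gene's transcripts found at no other place (horizontal), 1 point for each of the 68 histone genes, coloured by type. Of the 9 genes at 0 reads, 7 sit below 20%.

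Neighbours that faced head to head with under 1000 bases between their starts made up 13 pairs, 12 on chromosome 13 and 1 on chromosome 3. In 12 of them an H2A gene faced an H2B gene, with 167 to 305 bases between the annotated starts, and Hist1h2bh faced the H3 gene Hist1h3f at 692 bases. Partners were at unlike levels in some pairs and closer in others. Per length, Hist1h2ac had a mean log2 value of -4.51 (36 reads in all libraries) and its partner Hist1h2bc 1.42 (552 reads), and Hist1h2ah had -2.19 against 0.35 for Hist1h2bk. Hist1h2ag and Hist1h2bj were at 1.03 and 1.53, and in 2 pairs both genes had 0 reads. The pair in which both genes passed the filter for testing was Hist1h2ag and Hist1h2bj, 264 bases apart.

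RefSeq promoters (GRCm38.p6, 250 bases before to 50 after the start) were matched for 62 of the 68 genes and searched on both strands for 3 strings. TATAAA, the core of the TATA box, was present in 35 of 62 (56.5%), against 14.1% of 26963 other promoters. CCAAT was present in every matched promoter of H1 (6), H2A (18), H2B (16) and H3 (10) genes and in 3 of 12 H4 promoters (25%), against 37.8% of the others. The octamer ATTTGCAT, which POU factors bind, was present in 7 of 18 H2A (38.9%) and 6 of 16 H2B promoters (37.5%), in no H1, H3 or H4 promoter, and in 1.71% of the others. The promoters of the genes called in a comparison of the methods are given 5′ to 3′ on the gene's strand, with these strings in capitals on either strand:

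Hist3h2a, chr11:58954435-58954734, plus strand: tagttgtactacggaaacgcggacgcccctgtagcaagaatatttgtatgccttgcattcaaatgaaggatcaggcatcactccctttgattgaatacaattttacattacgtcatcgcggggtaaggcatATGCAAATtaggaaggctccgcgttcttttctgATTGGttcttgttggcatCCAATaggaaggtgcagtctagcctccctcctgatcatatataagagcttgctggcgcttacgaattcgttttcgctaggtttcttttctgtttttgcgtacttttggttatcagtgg

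Hist1h4d, chr13:23581318-23581617, plus strand: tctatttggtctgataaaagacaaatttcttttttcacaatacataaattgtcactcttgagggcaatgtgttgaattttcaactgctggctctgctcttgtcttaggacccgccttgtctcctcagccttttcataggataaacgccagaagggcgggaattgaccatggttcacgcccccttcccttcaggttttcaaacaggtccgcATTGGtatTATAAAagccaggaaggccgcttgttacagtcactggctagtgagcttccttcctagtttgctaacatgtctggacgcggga

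Hist1h2bk, chr13:22035571-22035870, plus strand: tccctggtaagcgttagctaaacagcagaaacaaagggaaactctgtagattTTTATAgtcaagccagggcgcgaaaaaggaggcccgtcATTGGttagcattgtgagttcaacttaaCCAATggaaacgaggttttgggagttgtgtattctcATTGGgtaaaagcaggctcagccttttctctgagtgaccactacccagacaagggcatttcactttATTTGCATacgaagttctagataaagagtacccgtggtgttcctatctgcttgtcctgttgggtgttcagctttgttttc

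Hist1h2bj, chr13:22042948-22043247, plus strand: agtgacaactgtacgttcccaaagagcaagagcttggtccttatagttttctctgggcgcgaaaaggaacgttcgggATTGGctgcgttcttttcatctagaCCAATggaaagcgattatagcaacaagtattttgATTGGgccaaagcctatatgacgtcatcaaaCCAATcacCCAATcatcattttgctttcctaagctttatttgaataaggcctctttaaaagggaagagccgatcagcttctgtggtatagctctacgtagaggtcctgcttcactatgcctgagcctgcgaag

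Hist3h2a holds the octamer and CCAAT, Hist1h2bj holds CCAAT alone, and Hist1h4d holds TATAAA and a single CCAAT. Hist1h2bk holds the octamer, CCAAT and TATAAA, the last on the opposite strand in bases shared with the promoter of Hist1h2ah. Promoters of head-to-head pairs can overlap, so the counts above can hold the same bases for both genes. A match describes the letters and does not show that a factor binds there.

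The summed level of the 68 genes was highest at p0 and lower in every cultured library. It was 56.9 and 37.6 RPM in p0 replicates 1 and 2. Under Keniry2022 it was 30.7 and 25.4 at p10 and 25.2 and 26.2 at p20. Under Mulas2019 it was 32.5 and 37.4 at p10 and 30.9 and 28.7 at p20. The 8 cultured libraries lay below both p0 libraries, p10 Mulas2019 replicate 2 by a small margin (37.4 against 37.6), and p0 replicate 1 stood far above all others. The mean over the 4 Keniry2022 libraries was 26.9 ± 2.60 (SD, n = 4) and over the 4 Mulas2019 libraries 32.4 ± 3.68 (SD, n = 4), a ratio of 0.83 with overlapping ranges. No test was run on this sum. In bulk libraries, fewer cells in S phase and less histone RNA per cell cannot be told apart. The sum covers only the histone RNA that was captured, by a selection step that is not stated. Whether the captured share changed between groups was not tested.

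**Figure D3:**
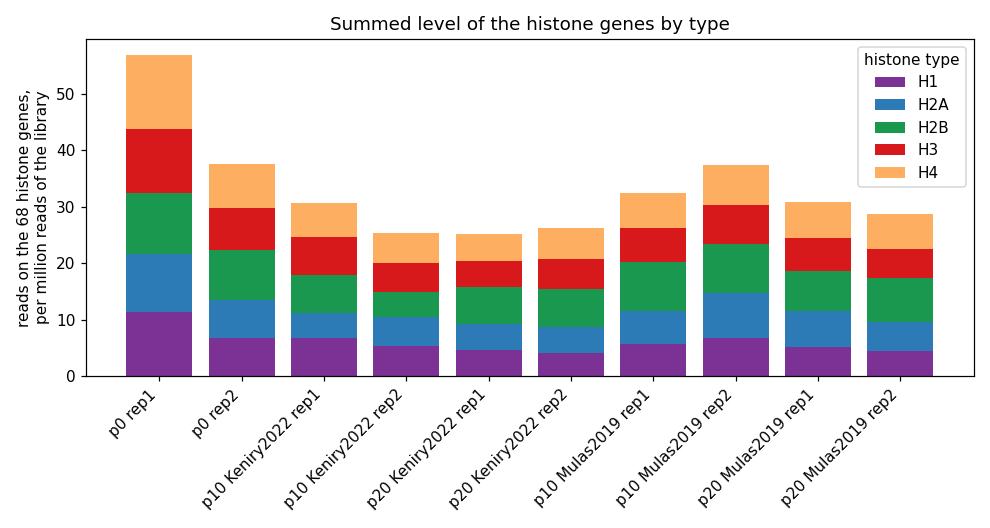
Reads on the 68 histone genes in RPM, scaled to the reads of the library (vertical), 1 bar for each of the 10 libraries, stacked by histone type. The bars of p0 reach 56.9 and 37.6, and the 8 cultured libraries lie between 25.2 and 37.4.

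Each of the 5 types had a higher mean at p0 than in the 8 cultured libraries, from a ratio of 1.38 for H2B to 1.76 for H4. For H1, H2B, H3 and H4 all 8 cultured libraries lay below both p0 libraries, while for H2A p10 Mulas2019 replicate 2 (7.97 RPM) lay above p0 replicate 2 (6.62). The ratio of Keniry2022 to Mulas2019 ran from 0.74 for H2A to 0.95 for H1. By cluster, the order of the groups was not the same. Hist1 gave 53.3 and 34.3 RPM at p0, 22.1 to 27.2 under Keniry2022 and 23.4 to 32.5 under Mulas2019. Hist2 gave 1.41 in each p0 library, 1.18 to 1.80 under Keniry2022 and 1.65 to 2.66 under Mulas2019, where both p20 libraries were the highest. The 2 Hist3 genes together gave 1.81 and 1.87 at p0, 1.49 to 1.71 under Keniry2022 and 2.62 to 2.997 under Mulas2019, so that all 4 Mulas2019 libraries lay above the 6 others. Hist4h4 had 0 to 0.397 RPM, too few for any comparison.

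To be tested, a gene needed values over 0 in 50% or more of the libraries in a fit, which 14 of the 68 genes passed for the comparison of methods and 13 for the comparisons of single groups. The tested genes hold 68% of the histone reads. Differences were tested with limma and adjusted with Benjamini-Hochberg over all features tested. A gene was called when its adjusted p was below 0.05. By the study's description the 2 libraries of a group are the lines, so the 4 libraries of a method hold each line at both passages and are not separate cultures throughout.

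Keniry2022 was first compared with Mulas2019 over p10 and p20 together, 4 libraries each. Of the 14 histone genes tested, 2 were called, both lower under Keniry2022: the H2A gene Hist3h2a and the H4 gene Hist1h4d. Over all 11654 features tested 51.5% were called, 25.5% as lower under Keniry2022, so calls among the histone genes were no more frequent than among all features. Hist3h2a passed the filter through Mulas2019 alone, being above 0 in its 4 libraries and in no Keniry2022 library, so its place among the tested genes is tied to its direction. Without it 13 genes were tested, 1 was called and 12 had a difference below 0, with a median of -0.24. With Hist3h2a the difference was below 0 in 13 of the 14, with a median of -0.26, while the median over all features was -0.003 and 50.4% of them were below 0. With no filter, 59 histone genes entered and 3 were called, where 35.9% of all features were. Of the 59, 41 had a difference below 0, with a median of -0.28 against -0.06 over all features. The share of all features below 0 is not given for this fit, and libraries at 0 reads stand at the floor. All 4 Keniry2022 libraries lay below all 4 Mulas2019 libraries in 1 of the 14, Hist3h2a, against 23.4% of all features tested, and the reverse held for none, against 23.1%.

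Hist3h2a (chr11:58954685-58956674, plus strand) is the H2A gene of the small Hist3 cluster. Its log2 values were -0.49 and -0.23 at p0, -0.57 and -0.45 at p10 Keniry2022, and -0.38 and -0.38 at p20 Keniry2022. In p10 Mulas2019 they were 0.22 and 0.28, and in p20 Mulas2019 0.43 and 0.23. The Mulas2019 libraries were all above 0 and above the 6 others. Among these, p0 overlapped both Keniry2022 groups, and both p20 Keniry2022 libraries were above both p10 Keniry2022 libraries. The difference was -0.73 ± 0.12 (SE; limma, Benjamini-Hochberg adjusted p = 0.00077), Keniry2022 minus Mulas2019. Without the filter it was the gene of the 3 called with the smallest adjusted p (0.0011).

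Trim17, which encodes a ubiquitin ligase, starts at the same base as Hist3h2a in the table and runs over it on the same strand. It had 34 to 48 reads in the p0 and Keniry2022 libraries and 46 to 70 in the Mulas2019 libraries, where Hist3h2a had 34 to 46 and 56 to 74. Reads of the overlap cannot be assigned to either gene with certainty, and the part of Trim17 in the value of Hist3h2a was not tested.

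Hist1h4d (chr13:23581598-23581990, plus strand) encodes the core histone H4. It stood at 2.51 and 1.80 at p0, at 0.69 and 0.82 at p10 Keniry2022 and at 0.63 and 0.05 at p20 Keniry2022. Under Mulas2019 it stood at 1.5 and 1.64 at p10 and at 0.80 and 1.21 at p20. Thus p0 was highest and the methods overlapped only where the lowest Mulas2019 library (0.80) fell under the highest Keniry2022 library (0.82). The difference was -0.74 ± 0.21 (SE; limma, adjusted p = 0.0125). Values rest on 12 to 54 reads a library. The call was lost under quantile normalisation (adjusted p = 0.0574).

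Neither H1 gene tested was called between the methods. Hist1h1a, which encodes a linker histone common in cycling cells, had 2.73 and 1.66 at p0, 1.55 and 1.32 at p10 Keniry2022, 0.74 and 0.71 at p20 Keniry2022, 1.38 and 1.41 at p10 Mulas2019, and 1.12 and 0.45 at p20 Mulas2019. Both arms were thus lower at p20 than at p10, and the difference between methods was -0.01 ± 0.25 (SE; limma, adjusted p = 0.982), a value whose sign turned under median centring (0.0052). Hist1h1c, also a linker histone gene, ranged from 0.43 to 0.67 in the 8 cultured libraries and stood at 1.47 and 0.62 at p0, so p0 replicate 1 alone stood apart. Its difference was -0.11 ± 0.09 (SE; adjusted p = 0.370), which turned to 0.0932 under quantile normalisation.

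The remaining H2A genes tested were Hist1h2ag and Hist1h2ae. Hist1h2ag had 2.63 and 1.24 at p0, 0.91 and 0.94 at p10 Keniry2022, 0.45 and 0.45 at p20 Keniry2022, 1.13 and 1.17 at p10 Mulas2019, and 0.75 and 0.63 at p20 Mulas2019. Each passage of Mulas2019 was above the same passage of Keniry2022 without overlap, but the difference of -0.24 ± 0.17 (SE; limma, adjusted p = 0.256) was not called. Hist1h2ae had 1.85 and 0.88 at p0 and ranged from 0.33 to 0.83 under Keniry2022 and from 0.30 to 1.17 under Mulas2019. The methods overlapped, and the difference of -0.18 ± 0.19 (SE; adjusted p = 0.467) turned to 0.0102 under quantile normalisation.

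Among the H2B genes, Hist1h2bj had 2.33 and 1.78 at p0, 1.29 and 0.84 at p10 Keniry2022, 1.62 and 1.09 at p20 Keniry2022, 2.07 and 2.03 at p10 Mulas2019, and 1.07 and 1.14 at p20 Mulas2019. The p0 and p10 Mulas2019 libraries were above the other libraries, of which p20 Keniry2022 replicate 1 (1.62) came close to p0 replicate 2 (1.78). Hist1h2bc had 1.85 and 1.84 at p0, 0.95 to 1.39 under Keniry2022 and 1.20 to 1.95 under Mulas2019. Only p20 Mulas2019 replicate 2 (1.95) reached the level of p0. Hist1h2bk and Hist1h2bm ranged from -0.62 to 1.35 and from 0.28 to 1.59 over the 10 libraries. The 4 differences between the methods were from -0.55 to -0.28 and none was called, with adjusted p from 0.155 to 0.348 (limma).

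The H3 gene Hist1h3c had 3.37 and 2.69 at p0, 2.11 and 1.94 at p10 Keniry2022, 1.56 and 2.05 at p20 Keniry2022, 2.42 and 2.21 at p10 Mulas2019, and 1.85 and 2.08 at p20 Mulas2019. Both p0 libraries were above the 8 others, which overlapped between methods. Hist1h3a had 1.32 and 0.15 at p0, 1.29 and 0.58 at p10 Keniry2022, 0.42 and 0.02 at p20 Keniry2022, 0.11 and 0.84 at p10 Mulas2019, and 0.81 and -0.41 at p20 Mulas2019. No group stood apart, and Hist1h3a was the tested gene whose difference was above 0 (0.24 ± 0.32, SE; limma, adjusted p = 0.554). The difference of Hist1h3c was -0.22 ± 0.14 (SE; adjusted p = 0.207).

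The H4 gene Hist1h4i had 3.55 and 2.74 at p0, 2.34 and 2.31 at p10 Keniry2022, 2.45 and 2.64 at p20 Keniry2022, 2.36 and 2.52 at p10 Mulas2019, and 2.71 and 2.53 at p20 Mulas2019. It was the steadiest of the H4 genes in culture, and its difference was -0.09 ± 0.09 (SE; limma, adjusted p = 0.410). Hist1h4b ranged from -0.78 to 1.57 over the 10 libraries, with a difference of -0.59 ± 0.35 (SE; adjusted p = 0.181), and 4930558J22Rik overlaps it on the opposite strand. Reads on 4930558J22Rik were fewest (6) in p20 Keniry2022 replicate 1 and most (29) in p0 replicate 1, the libraries in which Hist1h4b had its fewest (8) and most (35), and without strand information the 2 cannot be told apart.

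**Figure D4:**
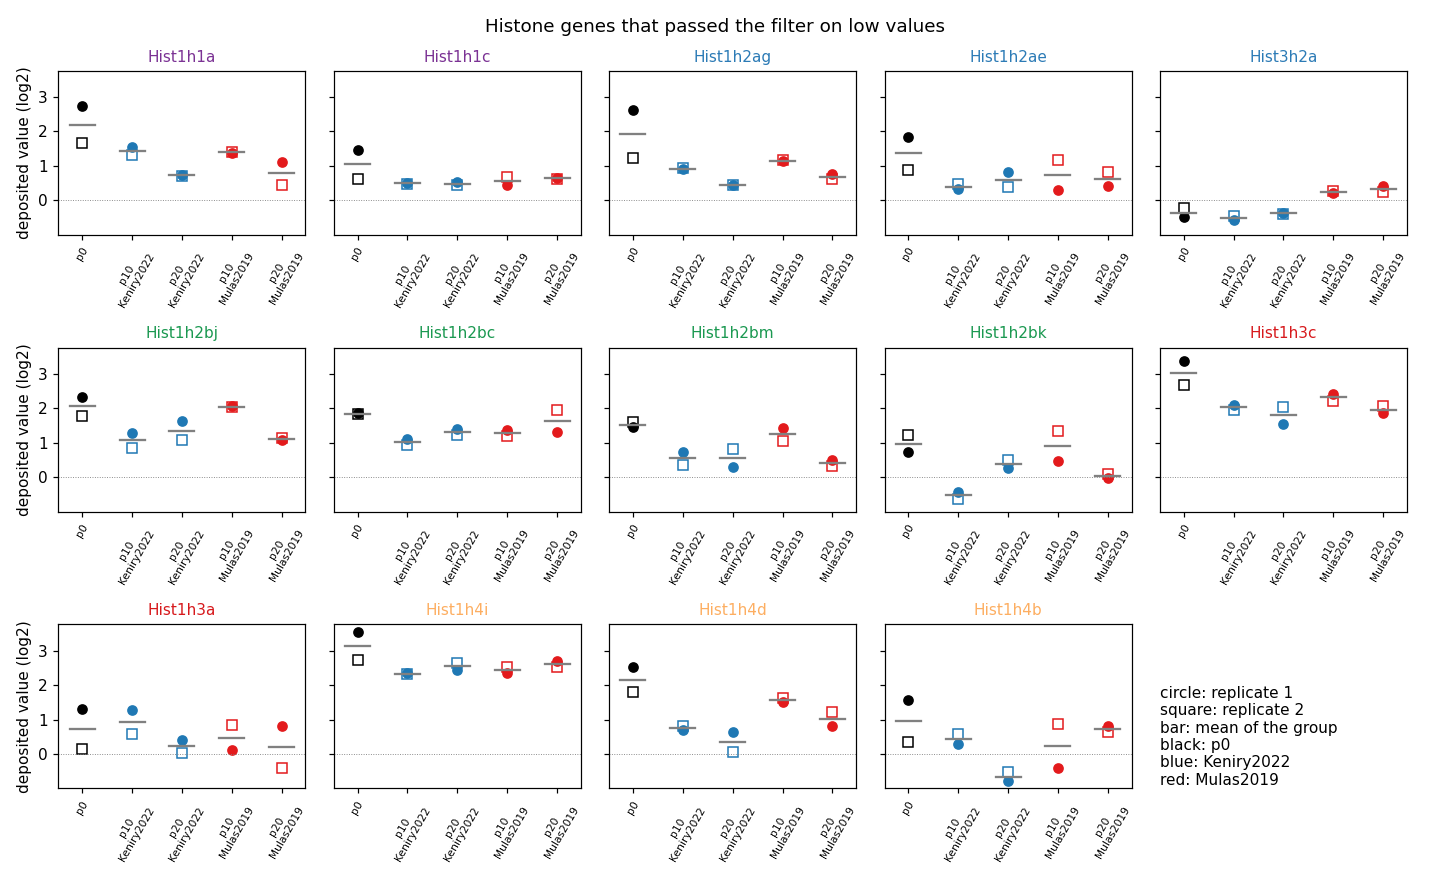
Deposited log2 value (vertical) of the 14 histone genes that passed the filter, 1 panel a gene, with the 5 groups side by side, circles for replicate 1, squares for replicate 2 and a bar for the mean of the group. Hist3h2a is higher in the 4 Mulas2019 libraries, while most of the other genes are highest at p0.

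At matched passage, histone genes were called at p10 and not at p20. At p10, of 13 histone genes tested, 2 were called lower in p10 Keniry2022 than in p10 Mulas2019, where 8.53% of 11561 features were called and 4.77% as lower. Both were H2B genes, Hist1h2bk at -1.44 ± 0.30 (SE; limma, adjusted p = 0.0293) and Hist1h2bj at -0.98 ± 0.24 (SE; adjusted p = 0.0487). Hist1h2bk, chosen for mention after its values were seen, stood at -0.44 and -0.62 in p10 Keniry2022 and at 0.46 and 1.35 in p10 Mulas2019, without overlap. Both calls were lost when any single p10 or p20 library was left out, and both stood when either p0 library was left out. At p20 no histone gene was called (limma), where 2.15% of all features were called. At an unadjusted p under 0.05 (limma), 2 were lower under Keniry2022, and voom called 0. No share over all features is given for these last counts.

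At p20 neither of these H2B genes was called. Their differences there were 0.35 ± 0.30 (SE) for Hist1h2bk and 0.25 ± 0.24 (SE) for Hist1h2bj, Keniry2022 minus Mulas2019, so a turn of the order is not shown. Hist1h2bk was 0.25 and 0.50 in p20 Keniry2022 and -0.03 and 0.09 in p20 Mulas2019, and Hist1h2bj overlapped between the methods there. The change of the method difference from p10 to p20 was 1.78 ± 0.42 (SE) for Hist1h2bk and 1.23 ± 0.35 (SE) for Hist1h2bj, with an unadjusted p of 0.00313 and 0.0077 (limma). None of the 13 passed the adjustment over all features (limma, lowest adjusted p = 0.99996). An unadjusted p under 0.05 was reached by 4, for which no share over all features is given.

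Each cultured group was then compared with p0. The 4 comparisons share the 2 p0 libraries. The difference was below 0 in 12 of 13 histone genes for p10 Keniry2022 and in 13 of 13 for p20 Keniry2022, p10 Mulas2019 and p20 Mulas2019, with medians of -0.97, -0.76, -0.59 and -0.94. The medians over all 11561 features were 0.0018, 0.0044, 0.0056 and 0.0338. Called histone genes numbered 0 of 13 for p10 Keniry2022, 0 for p20 Keniry2022, 0 for p10 Mulas2019 and 6 for p20 Mulas2019, all 6 lower. Among all features 0.199%, 0.199%, 33% and 29.3% were called, and 14.6% were called lower in p20 Mulas2019. At an unadjusted p under 0.05 (limma), 9, 9, 4 and 7 of the 13 were lower, and voom called 0, 0, 0 and 5. The shares over all features under these criteria are not given, so these counts do not set the histone genes apart from other features.

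The genes called lower in p20 Mulas2019 than at p0 came from all 5 types. They were the H1 gene Hist1h1a (-1.41 ± 0.34, SE; limma, adjusted p = 0.0257), the H2A gene Hist1h2ag (-1.24 ± 0.37; adjusted p = 0.0426) and the H4 gene Hist1h4d (-1.15 ± 0.28; adjusted p = 0.0263). The H2B genes Hist1h2bm and Hist1h2bj differed by -1.11 ± 0.23 (SE; adjusted p = 0.0199) and -0.95 ± 0.24 (SE; adjusted p = 0.0302). The H3 gene Hist1h3c differed by -1.07 ± 0.25 (SE; adjusted p = 0.0236). All 6 calls were lost when either p20 Mulas2019 library was left out and when libraries were weighted by quality.

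The Keniry2022 groups gave differences from p0 of like size with no call. Hist1h4d differed by -1.40 ± 0.28 (SE; limma, adjusted p = 0.0999) at p10 and by -1.82 ± 0.28 (SE; adjusted p = 0.0649) at p20. Hist1h3c differed by -1.01 ± 0.25 (SE; adjusted p = 0.123) at p10 and -1.23 ± 0.25 (SE; adjusted p = 0.0956) at p20. An adjusted p over the threshold does not show that these groups equal p0.

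The p0 libraries differed from each other, and the result rests on which of them is used. Replicate 1 was above all other libraries in 10 of the 13 histone genes, against 35.3% of all features tested, and above replicate 2 in 11, against 51.9%. Its level exceeded that of replicate 2 by a median of 0.81 (log2) over the 13, where the median over all features was 0.02. Of the 13, 6 had all 8 cultured libraries below both p0 libraries, where 13.2% of all features did. Without p0 replicate 1, the histone genes called were 1 for p10 Keniry2022, 3 for p20 Keniry2022, 0 for p10 Mulas2019 and 6 for p20 Mulas2019, where 5.23%, 4.61%, 40.5% and 37.5% of all features were called. Without p0 replicate 2 they were 12, 10, 9 and 9, where 64.3%, 66.5%, 71.8% and 71.1% of all features were. Why replicate 1 stood apart was not tested.

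**Figure D5:**
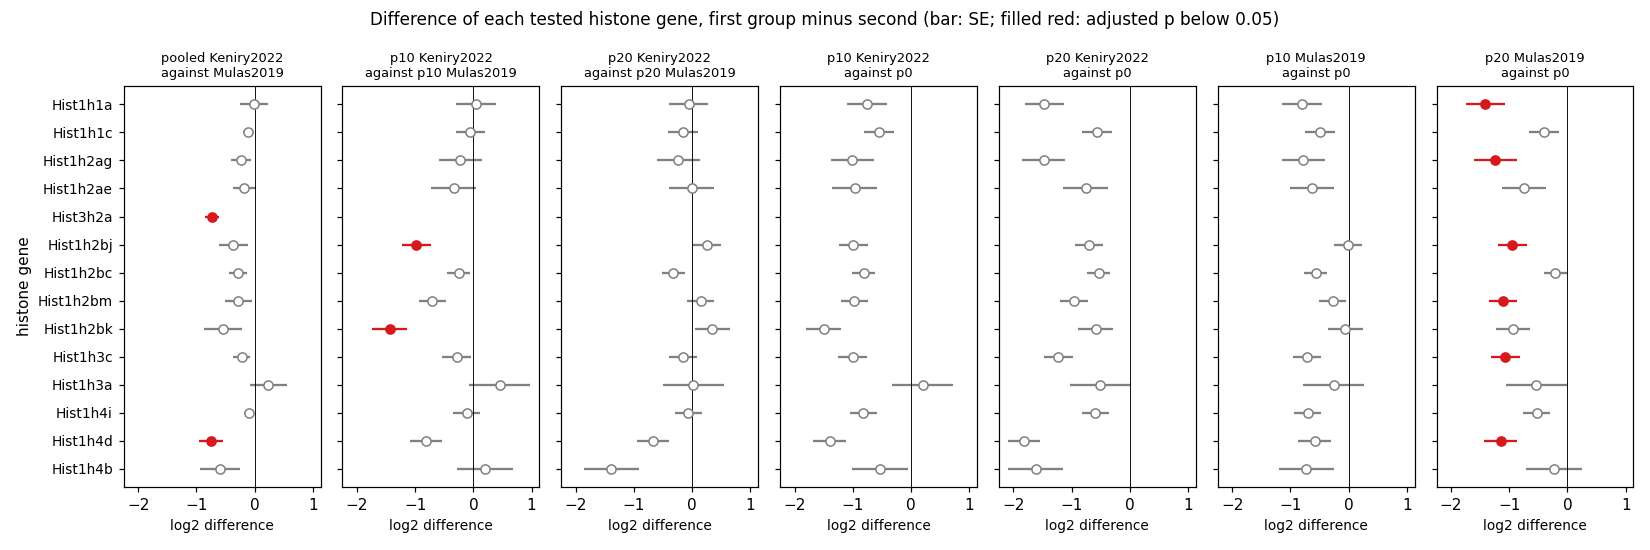
Log2 difference (horizontal, first group minus second) of the 14 tested histone genes in the 7 comparisons, 1 panel a comparison, with bars of 1 SE and filled red points where the adjusted p was below 0.05. Hist3h2a was tested over the methods only. In the 4 panels against p0 nearly all points lie left of 0, and only p20 Mulas2019 has called genes, 6 of 13.

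Genes below the filter were called in both directions when it was dropped, and are given as values chosen after they were seen. In p20 Mulas2019 against p0, 8 histone genes were then lower and 2 higher, where 15% of all features were called. The lower ones included 3 below the filter. These were the H3 gene Hist1h3f (-2.55 ± 0.52, SE; limma, adjusted p = 0.0270) on 1 to 11 reads a library, the H1 gene Hist1h1e (-1.20 ± 0.29; adjusted p = 0.0375) on 4 to 10 reads, and the H2A gene Hist1h2ad on 0 to 6 reads, for which no fold is given because libraries at 0 reads stand at the floor. The 2 higher genes were Hist2h2be and Hist3h2a. Hist2h2be (chr3:96221121-96223738, plus strand), an H2B gene whose transcript can be polyadenylated, had -2.39 and -3.14 at p0, -2.12, -2.07, -1.67 and -1.68 in the Keniry2022 libraries, and -1.67, -1.61, -1.05 and -0.92 in the Mulas2019 libraries, p10 before p20. Its p20 Mulas2019 libraries were the highest. With no filter it was called higher than p0 in p10 Mulas2019 (1.13 ± 0.29, SE; limma, adjusted p = 0.0380) and in p20 Mulas2019 (1.78 ± 0.29, SE; adjusted p = 0.0181), on 8 to 38 reads a library. Hist2h3c1, an H3 gene of Hist2 on 3 to 16 reads a library, was the third gene called over the methods with no filter, lower under Keniry2022 like the other two (-0.94 ± 0.32, SE; adjusted p = 0.0490). Hist3h2a, tested against p0 only without the filter or with a looser filter, was then higher in p20 Mulas2019 by 0.69 (limma, adjusted p = 0.0415 and 0.0300). In p10 Mulas2019 it was called higher than p0 with the looser filter only, by 0.61 (limma, adjusted p = 0.0374). Between the methods at p10 it differed by -0.76 in these fits (limma, adjusted p = 0.0487 and 0.0395). The filter on low values removes these genes from the counts above, and a count over the genes that passed is no count over the clusters.

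Genes that supply histones or mark S phase were taken from 4 lists and read over the pooled methods in the same fit. Of 11 replication-independent histone genes 4 were lower under Keniry2022 and none higher, with a median difference of -0.13, where 25.5% of all features were called lower and 25.9% higher. With 51.5% of all features called, these calls were no more frequent than elsewhere. These were H1f0, the linker histone of slowly dividing and differentiating cells (-0.64 ± 0.10, SE; limma, adjusted p = 0.000543), H2afy2 (-0.39 ± 0.08; adjusted p = 0.00227) and H2afy (-0.19 ± 0.06; adjusted p = 0.0228), which encode macroH2A, and H1fx (-0.31 ± 0.12; adjusted p = 0.0420), which encodes a linker histone variant. The H3.3 genes and H2afz were not called.

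Of 18 genes for histone mRNA transcription and 3′ end formation, 5 were higher under Keniry2022 and 2 lower, again against 25.9% and 25.5% of all features. Slbp, which encodes the stem-loop binding protein, differed by 0.06 ± 0.04 (SE; limma, adjusted p = 0.237) and stayed between 4.46 and 4.66 in all 10 libraries. The smallest p-values were those of Ncbp2 (0.43 ± 0.04; adjusted p = 6.38e-05), a subunit of the nuclear cap-binding complex, Eri1 (0.33 ± 0.04; adjusted p = 0.000125), an exonuclease that trims histone mRNA ends, and Sympk (-0.35 ± 0.05; adjusted p = 0.000376), a scaffold of the cleavage complex.

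Of 16 histone chaperone genes 9 were higher under Keniry2022 and none lower, against 25.9% and 25.5% of all features, with Nap1l1 (0.33 ± 0.03, SE; limma, adjusted p = 5.70e-05), Rbbp4 (0.29 ± 0.04; adjusted p = 0.000299) and Atrx (0.35 ± 0.06; adjusted p = 0.000736) first by p. Of 15 S phase genes 7 were higher and none lower. At matched passage 0 S phase genes were called by limma and 0 by voom at p10 and at p20, with 1 and 2 higher at an unadjusted p under 0.05. Of the chaperone genes 1 was higher at p10, and at p20 limma and voom called 0, with 3 higher at an unadjusted p under 0.05. Over all features, 8.53% were called at p10 and 2.15% at p20, in either direction. These shares are for adjusted p by limma, and none is given for the unadjusted or voom counts. Mcm7, a subunit of the replicative helicase (0.22 ± 0.03; adjusted p = 0.000557), Pcna, the sliding clamp (0.27 ± 0.04; adjusted p = 0.000921), and Mcm2 (0.17 ± 0.04; adjusted p = 0.00294) had the smallest p-values. In p20 Mulas2019 against p0, 6 chaperone genes were lower and 0 higher, and 3 S phase genes were lower and 1 higher, where 14.6% of all features were lower and 14.7% higher. The part of S phase in the histone levels was not tested.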

How the data were processed

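RNA-seq of 10 male mESC libraries was analysed from 1 table of log2 values that the authors had deposited. Per the study, 75 bp single-end NextSeq500 reads were aligned to mm10 with HISAT2 and quantified in SeqMonk, whereas bcl2fastq and TopHat2 2.0.12 stand in the processing notes of the submitters. Annotation release, strand setting and the counting of reads with several alignments were not stated. The values behave as log2 RPKM, with 0 reads entered as 0.9 reads. Library totals, feature lengths and whole reads were recovered from these floors, with 99.99% of values whole within 0.1 reads. In 62 of the 68 genes the length equals the span.

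Features above 0 in at least 50% of the libraries of a fit were tested with limma 3.58.1 in R 4.3.3 (lmFit, eBayes with trend, two-sided, Benjamini-Hochberg over all features tested, threshold 0.05). The pooled fit held 8 libraries with method as the term, and the other 6 comparisons came from a model of 5 groups over 10 libraries. No pseudocount was added. Differences that include a library at 0 reads depend on the floor, and those of genes on few reads are imprecise in either direction. Values were given per library for genes called in the pooled fit and the 2 of each type with the highest mean, other tested genes by range, and from each further list up to 3 genes with the smallest p, plus Slbp. The histone genes and lists were chosen with earlier results of these data known. The fits were tested on simulated reads. Alternatives were other filters, a pseudocount of 1, 2 scalings, a length and GC correction, voom, quality weights, a replicate block and each library left out.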

Additional observations from a re-analysis of the deposited data

How the results depend on the processing

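The filter decides most of what can be said, since 14 of 68 genes passed it, the reads per gene are few and 1 or 2 libraries move every count. With the stricter filter 2 histone genes were left, none called over the pooled methods (0) or at p10 (0) and 1 called in p20 Mulas2019 against p0. With no filter the counts were 5 at p10 and 1 and 10 for p10 and p20 Mulas2019 against p0. Of all features 6.15%, 17.8% and 15% were called there. With the looser filter the histone counts were 1 at p20, 1 for p20 Keniry2022 and 2 for p10 Mulas2019 against p0. Of all features 2.52%, 0.215% and 33.1% were called there. Over the pooled methods, quantile normalisation and the model of 5 groups gave 1 each, the latter because Hist3h2a is not tested there. At p10, median centring, quantile normalisation and voom gave 1 each, and library quality weights 4. Quality weights also gave 2 at p20 and 0 for p20 Mulas2019 against p0. The length and GC correction gave 1 for p20 Keniry2022 against p0. For p10 Mulas2019 against p0, a pseudocount of 1 gave 2, median centring 1 and quantile normalisation 3. For the other settings the share over all features is not given, so their counts show only how the calls moved. The cause of these shifts was not tested. Of the features called for p20 Keniry2022 against p0, 26.1% were higher as reported and 15% after median centring.

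With 1 library left out, the histone genes called ranged from 1 to 2 over the pooled methods, 0 to 4 at p10 and 0 to 2 at p20. Against p0 they ranged from 0 to 12 for p10 Keniry2022, from 0 to 10 for p20 Keniry2022, and from 0 to 9 for each Mulas2019 group. The summed level, Keniry2022 over Mulas2019, stayed between 0.79 and 0.87 with a library left out, and was 0.82 without Hist1h4i and 0.81 scaled to the reads in features. Hist3h2a was called in the 14 alternatives in which it was tested, from -0.82 to -0.36. It passed the filter through Mulas2019 alone, so it was not tested with any Mulas2019 library left out. The stricter filter and the model of 5 groups also dropped it, so these 14 do not show that its call is steady. Hist1h4d kept its call in 18 of 19. The sign turned for Hist1h1a (0.0052 under median centring, 0.16 under quantile normalisation, 0.0717 with quality weights, and from -0.22 to 0.12 with a library left out), for Hist1h2ae (0.0102) and Hist1h1c (0.0932) under quantile normalisation, and for Hist1h3a without p20 Mulas2019 replicate 2 (-0.0132, range to 0.42).

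The replicate numbers were not taken to pair the libraries. Differences between replicates 1 and 2 correlated over features at 0.171 to 0.63 among p0, p10 Keniry2022 and the Mulas2019 groups, but at -0.118 to -0.698 between p20 Keniry2022 and each of them. With the replicate block the count was 2 over the pooled methods and 7 for p20 Mulas2019 against p0, and it was as reported in the other 5 comparisons. With the numbers of p20 Keniry2022 crossed, an alternative added after the data were seen, the block gave 1 at p10 and 2 for p10 Mulas2019 against p0.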
